A study of Homo sapiens with 2 samples.

Results

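The GATA transcription factors and their FOG cofactors are encoded by 8 genes, GATA1 to GATA6, ZFPM1 (FOG1) and ZFPM2 (FOG2). Peaks of a TET1 ChIP were assigned to a gene when they overlapped its span on the human build hg19, given to the nearest kb and widened by 20 kb on each side. Of the 46208 peaks in the list, 73 met this rule, over windows that add up to 1032 kb. The rule used gene positions only, and no peak width or score.

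The cells came from H1, an established line of human embryonic stem cells, here with a V5 epitope tag on its own TET1 protein, collected as cardiac progenitors on day 7 of differentiation. The heart lineage was induced by switching WNT signalling on with 6 µM CHIR99021 up to day 2 and off with 5 µM IWP2 between day 3 and day 5. One group is the V5 ChIP and the other is the input chromatin of the same kind of cells, with 1 library in each. No other treatment is listed for either library. Both libraries carry the genotype entry "Wild type" in the labels although the design names the tagged line. A V5 ChIP from cells without the tag was not analysed here, so binding of the antibody to anything but the tag cannot be told apart from TET1. There are no replicates, the read depth is unknown, and no value below has a p-value. Each peak has a score set by the authors' peak caller, from 50 upwards. In all, 2165 human peaks have 3100 or more, most of them tied at exactly 3100, and these are treated as 1 unordered class, called the ceiling.

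TET1 oxidises 5-methylcytosine, the first step of active DNA demethylation, and it is known to sit at CpG-rich promoters, where its CXXC zinc finger contacts CpG. GATA factors bind the sequence GATA through a pair of zinc fingers. GATA1, GATA2 and GATA3 are best known from blood, where GATA1 drives red cell and megakaryocyte formation, GATA2 maintains stem and progenitor cells and GATA3 directs T helper 2 cells. GATA4, GATA5 and GATA6 act in heart and endoderm, and GATA4 and GATA6 are required in early heart development. FOG proteins do not rely on their own contact with DNA: they bind the amino-terminal zinc finger of a GATA factor and recruit corepressors, ZFPM1 mainly beside GATA1 in blood and ZFPM2 beside GATA4 in the heart.

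The starts of 5 of the 8 genes could be shown as sequence, because RefSeq promoters of GRCh38.p14 were at hand for them. For each gene the start was taken whose distance to the end of the gene differed least from the length of the span, and by less than 2 kb, and the 250 bases before it are printed from 5′ to 3′. They are shown because the TET1 peaks divided these genes into 4 with a peak over the start and 1 without. Capitals mark CpG dinucleotides, the sequence that the CXXC finger contacts. The GRCh38.p14 positions are chrX:48786340-48786589 on the plus strand for GATA1, chr3:128493202-128493451 on the minus strand for GATA2, chr10:8054438-8054687 on the plus strand for GATA3, chr18:22169339-22169588 on the plus strand for GATA6 and chr16:88453030-88453279 on the plus strand for ZFPM1. All other positions in the text are on hg19, and the builds cannot be compared by number.
GATA1: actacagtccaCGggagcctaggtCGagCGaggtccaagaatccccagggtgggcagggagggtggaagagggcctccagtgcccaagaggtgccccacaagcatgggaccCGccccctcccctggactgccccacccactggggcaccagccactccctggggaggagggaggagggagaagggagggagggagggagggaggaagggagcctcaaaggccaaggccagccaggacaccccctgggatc
GATA2: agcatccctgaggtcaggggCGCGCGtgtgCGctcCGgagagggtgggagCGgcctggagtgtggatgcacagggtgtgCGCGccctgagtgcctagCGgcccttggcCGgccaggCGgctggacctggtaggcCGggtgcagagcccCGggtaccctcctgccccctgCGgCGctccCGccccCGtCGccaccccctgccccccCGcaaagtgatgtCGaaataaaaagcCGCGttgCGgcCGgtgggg
GATA3: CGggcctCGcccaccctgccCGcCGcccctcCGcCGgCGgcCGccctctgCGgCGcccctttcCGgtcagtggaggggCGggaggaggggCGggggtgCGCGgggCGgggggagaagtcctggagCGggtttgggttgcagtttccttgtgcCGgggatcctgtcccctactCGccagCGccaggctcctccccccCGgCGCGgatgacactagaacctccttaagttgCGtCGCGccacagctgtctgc
GATA6: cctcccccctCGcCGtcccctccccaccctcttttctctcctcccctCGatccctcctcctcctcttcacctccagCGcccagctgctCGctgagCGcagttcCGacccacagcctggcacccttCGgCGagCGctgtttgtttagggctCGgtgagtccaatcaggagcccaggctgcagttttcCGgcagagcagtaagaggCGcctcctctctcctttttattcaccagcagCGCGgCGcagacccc
ZFPM1: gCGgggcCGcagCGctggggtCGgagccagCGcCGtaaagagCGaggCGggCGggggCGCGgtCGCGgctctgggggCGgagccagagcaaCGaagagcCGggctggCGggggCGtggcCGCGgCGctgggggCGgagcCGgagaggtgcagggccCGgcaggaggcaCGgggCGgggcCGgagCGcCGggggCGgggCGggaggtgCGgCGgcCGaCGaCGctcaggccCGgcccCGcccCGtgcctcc

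The GATA1 stretch held 4 CpG, although 68.4% of its bases were G or C. The GATA6 stretch held 16, the GATA2 stretch 24, the GATA3 stretch 26 and the ZFPM1 stretch 39. Among 35116 RefSeq promoter stretches of the same length the median was 11 CpG (quartiles 3 and 23). At least 4 CpG were present in 70.7% of them, at least 16 in 41.0%, at least 24 in 23.7%, at least 26 in 19.6% and at least 39 in 2.65%. At the starts shown, the 4 genes with a TET1 peak there were thus above the median of all promoters, and the gene without a peak was below it. With 5 genes this is a description, and it depends on the start chosen. The other RefSeq starts of GATA3, by distance within reach of the same peak, had 11, 16, 15, 30 and 4 CpG before them. The other start of GATA2, also within reach of its peak, had 18. Starts at the median and with as few CpG as GATA1 thus also lay within reach of a peak. None of the 5 stretches held the letters AGATAA, a form of the GATA site, on either strand, and 9.17% of all promoter stretches did.

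**Figure D1:**
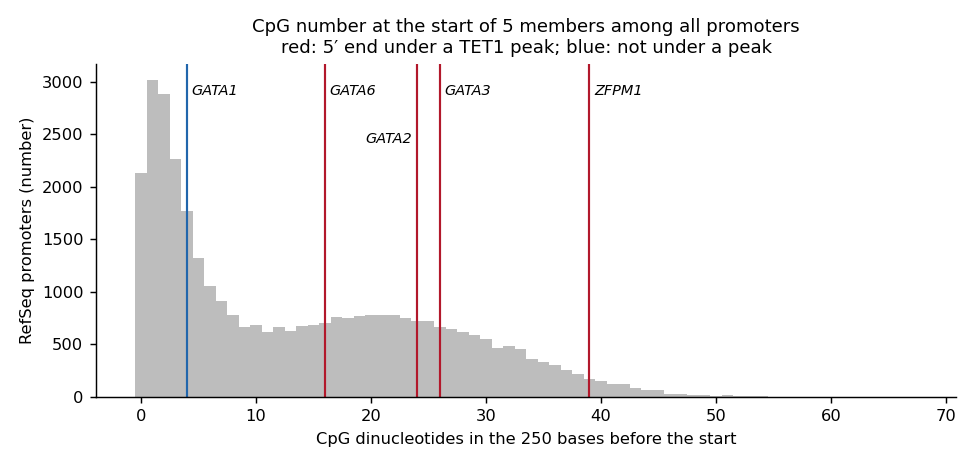
Number of RefSeq promoters (y axis) by the number of CpG dinucleotides in the 250 bases before the start (x axis). Red lines mark members whose 5′ end lay under a TET1 peak and the blue line GATA1, which had none there. GATA1 stands at 4 in the tall left part of the distribution, and GATA6, GATA2, GATA3 and ZFPM1 stand at 16, 24, 26 and 39.

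A TET1 peak lay over the 5′ end of 7 of the 8 genes, all but GATA1. By comparison, peaks covered 3.68% of the bases of the human chromosomes and touched 5.45% of their 1 kb bins. Peak-free intervals over 1 Mb were left out of both, which raises these values. The share of all gene starts under a peak was not computed, since no gene annotation on hg19 was used. Each of these 7 peaks reached more than 1 kb past the 5′ end in both directions, so the rounding of the spans to 1 kb does not decide the count. In 6 of the 7 the peak was at the ceiling, where 4.69% of the list stands. The exception was ZFPM2, with a score of 2640.80, a value that 6.14% of the list reaches. Both shares are over all peaks of the list, wherever they lie. The 6 ceiling peaks were all 5 kb or wider, and a wide peak is more likely to lie over a given point. The ceiling share among peaks over the starts of other genes was not computed.

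The peak over the start had a different reach at each gene. At GATA3 it ran over chr10:8084683-8104464, 19782 bp, which made it the 6th widest of the 46207 human peaks. It began 12.3 kb before the 5′ end and ended 7.46 kb inside the gene. RefSeq gives 6 starts for GATA3, from 9.36 kb before to 5.77 kb after the start shown above, and by these distances all 6 fall within the reach of this 1 peak, including a start with as few as 4 CpG before it. At GATA5 the peak over chr20:61046683-61065587 was 18905 bp wide, the 9th widest in the list. It reached 14.6 kb before the 5′ end and 4.32 kb into the gene, which is transcribed towards lower positions, so 77.2% of it lay before the gene. The GATA2 peak, chr3:128203573-128213340, had the opposite layout. It spanned 9768 bp, with 1.34 kb before the 5′ end and 8.43 kb inside a gene of 14 kb, and the other RefSeq start of GATA2, 4.67 kb further in, also falls within its reach.

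At GATA6 the peak over chr18:19743736-19755683 was 11948 bp wide and lay on both sides of the start, 5.26 kb before it and 6.68 kb into the gene. GATA6-AS1, a long non-coding RNA gene, is the next such gene before GATA6 in the RefSeq gene order. Genes of the same kind, GATA2-AS1, GATA3-AS1, ZFPM1-AS1 and ZFPM2-AS1, overlap GATA2, GATA3, ZFPM1 and ZFPM2. Peaks carry no strand, so signal over a start cannot be told apart from signal over a gene that overlaps or starts close by. At GATA4 the ceiling peak chr8:11557437-11563823 (6387 bp) lay over the start, and after a gap of 48 bp a further ceiling peak, chr8:11563872-11569591 (5720 bp), lay inside the gene. Together they ran from 4.56 kb before the 5′ end to 7.59 kb into the gene, a stretch of 12155 bp. RefSeq on GRCh38 gives GATA4 a length of 83.1 kb against the 56 kb of the span used here. Its RefSeq starts were not examined here. Among the FOG genes, the start peak of ZFPM1, chr16:88517434-88524020, measured 6587 bp and reached 2.57 kb before the 5′ end and 4.02 kb into the gene. The start peak of ZFPM2, chr8:106329756-106332535, measured 2780 bp and reached 1.24 kb before and 1.54 kb after.

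**Figure D2:**
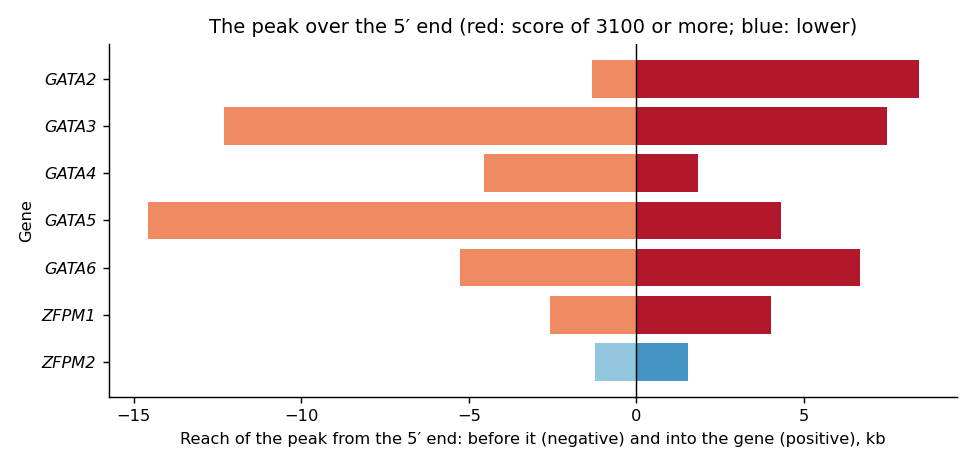
Reach of the TET1 peak over the 5′ end, in kb before it (negative, pale) and into the gene (positive, dark), for the 7 genes that have one. Red bars are at the score ceiling and the blue bar is below it. GATA3 and GATA5 reach 12.3 and 14.6 kb before the gene, GATA2 reaches 8.43 kb into it, and ZFPM2 has the shortest bar.

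GATA1 had 1 peak in its window and none over the gene or the 20 kb before it. That peak, chrX:48659269-48661671 with 2403 bp and a score of 490.92, began 14.3 kb past the 5′ end, beyond the 3′ end of a gene of 8 kb. The next protein-coding gene on that side in the RefSeq order is HDAC6, a cytoplasmic deacetylase. GATA1 thus stood apart from GATA2 and GATA3, the other GATA genes best known from blood, each of which had a ceiling peak over its start. GATA1 is the 1 member on chromosome X, and its position there was not separated from the other differences between the loci.

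The loci differed as much in how far peaks filled them as in the peak over the start. GATA5 was the fullest: its 11 peaks covered 84.4% of a 53 kb window. ZFPM1 had 31 peaks that covered 74.3% of 122 kb. The 4 peaks of GATA3 covered 37.4%, the 16 of GATA4 36.2%, the 4 of GATA2 29.8% and the 4 of GATA6 25.3%. At the low end, GATA1 had 5.01% of 48 kb covered and ZFPM2 0.742% of 526 kb. These shares have no replicate behind them, so the order of GATA3 and GATA4, and of GATA2 and GATA6, is not resolved. Exact 95% Poisson intervals of the peak numbers, which hold counting error only, were 21.1 to 44.0 for ZFPM1, 9.15 to 26.0 for GATA4, 5.49 to 19.7 for GATA5, 1.09 to 10.2 for GATA2, GATA3 and GATA6 alike, 0.242 to 7.22 for ZFPM2 and 0.0253 to 5.57 for GATA1.

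The genome around gave a scale for these shares. The human chromosomes were cut into consecutive windows of the same length as each gene window, on a grid that is centred on neither genes nor peaks, and those inside peak-free intervals over 1 Mb were left out. A covered share as high as that of ZFPM1 was found in 1 of 20273 windows (0.00493%), and one as high as that of GATA5 in 3 of 46289 (0.00648%). The share was 0.809% for GATA4, 0.95% for GATA3, 1.86% for GATA2 and 2.44% for GATA6. GATA1 and ZFPM2 were ordinary by this scale, with 22.0% and 69.9% of windows covered as much or more. No grid window overlapping the GATA2, GATA3, GATA5, GATA6 or ZFPM1 window reached the share of that gene window. The grid can cut a covered stretch that a window set around a gene holds whole. These percentages are therefore not those of windows set around genes, which were not computed for other genes. Taken over all 8 windows, 22.6% of the length was covered, and 45.4% without ZFPM2, which holds over 50% of the length. The human chromosomes, with peak-free intervals over 1 Mb left out, were covered over 3.68%.

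The surroundings of the loci differed too. Within 500 kb on each side of the window, peaks covered 27.8% around GATA5 and 25.0% around ZFPM1, but 10.3% around GATA4, 7.57% around GATA2, 6.90% around GATA1, 2.94% around GATA6, 1.79% around GATA3 and 0.505% around ZFPM2. Windows were covered more than their flanks at 7 of the 8 genes. The windows were set around a gene and the flanks were not, and the same count over other genes was not computed. GATA3 had the largest ratio of window to flank, 20.9, followed by GATA6 with 8.62. The ratio was 3.93 for GATA2, 3.52 for GATA4, 3.03 for GATA5, 2.97 for ZFPM1 and 1.47 for ZFPM2. At GATA1 it was 0.725. The fullest windows, GATA5 and ZFPM1, lay in the fullest surroundings, while GATA3 and GATA6 lay in sparse ones. The stretch around GATA3 held 12 further peaks in 1000 kb and that around ZFPM1 held 123.

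**Figure D3:**
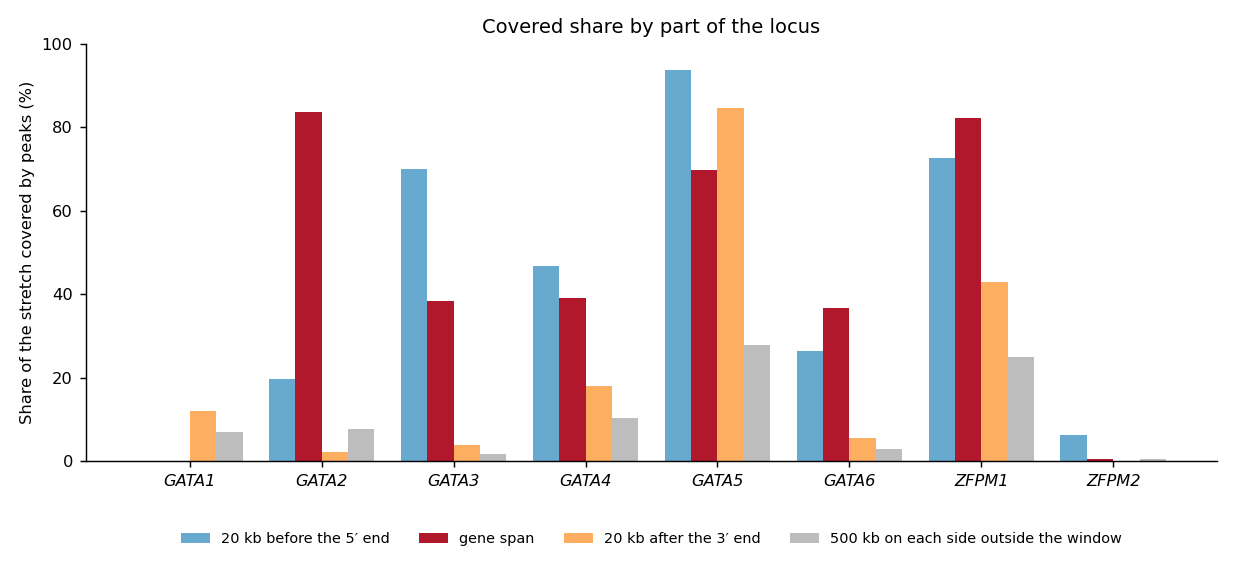
Share of each stretch covered by peaks (y axis, %) for the 20 kb before the 5′ end, the gene span, the 20 kb after the 3′ end and the 500 kb on each side outside the window, by gene. GATA2 is covered within the gene (83.7%), GATA3 before it (70.1%), GATA5 and ZFPM1 in all parts, and GATA1 and ZFPM2 hardly anywhere.

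Inside the windows the covered part lay in different places. GATA2 was covered over 83.7% of the gene but over 19.6% of the 20 kb before it and 2.24% of the 20 kb after it. GATA3 was covered over 70.1% of the 20 kb before the gene, 38.4% of the gene and 3.83% of the 20 kb after it. GATA6 followed with 26.3%, 36.8% and 5.53% for the same parts, and GATA4 with 46.7%, 39.0% and 17.9%. GATA5 was covered on both sides, over 93.7% before, 69.7% within and 84.7% after. ZFPM1 had 72.6% before, 82.4% within and 42.9% after. ZFPM2 had 6.2% before, 0.547% within and none after. For each of GATA2, GATA3, GATA4, GATA6, ZFPM1 and ZFPM2 the stretch after the 3′ end was the least covered of the 3 parts. At GATA5 the gene was the least covered, and at GATA1 the stretch after the 3′ end was the only covered part, at 12.0%.

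**Figure D4:**
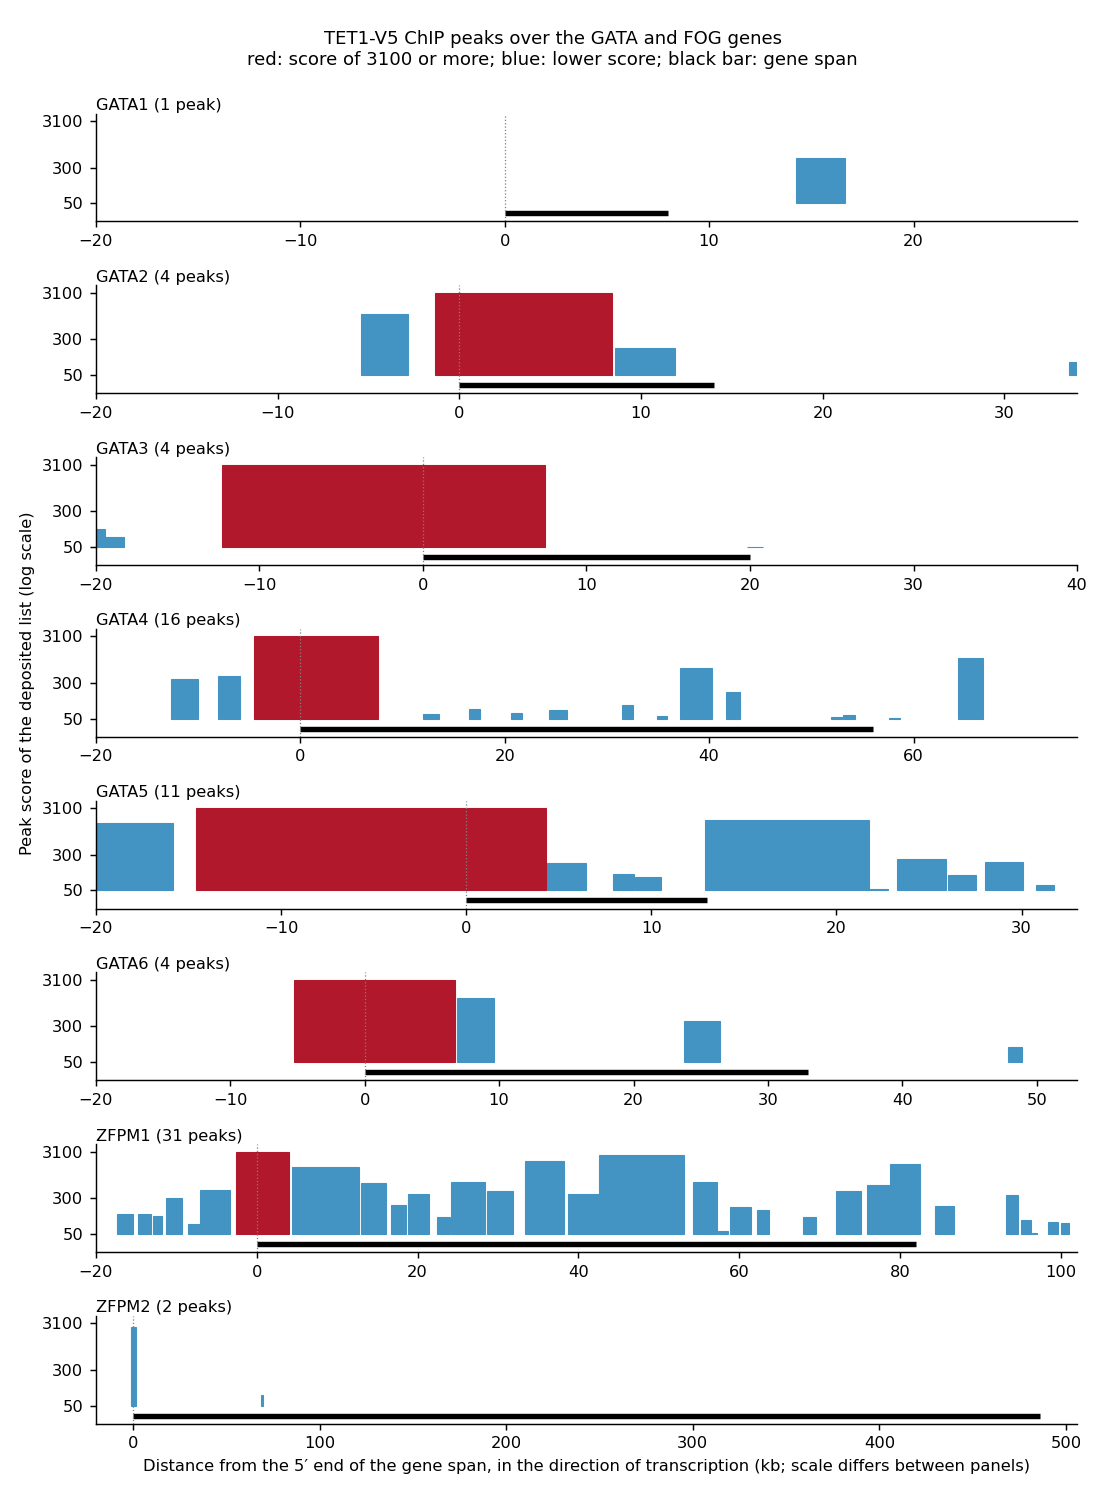
Peaks of the 8 windows by distance from the 5′ end in the direction of transcription (x axis, kb, with its own scale in each panel) and by score (y axis, log scale). Red boxes are at the ceiling, blue boxes below it, and the black bar is the gene span. A red box stands over the 5′ end of 6 genes. ZFPM1 has peaks along most of its panel, with gaps between them, and ZFPM2 has 1 tall peak at its start in 526 kb.

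In the heart genes GATA4 and GATA6 peaks covered similar shares of the gene, 39.0% and 36.8%, but the peaks differed in number and score. Beyond the start, the GATA4 gene carried a string of small peaks: of the 12 peaks that touched the gene, 8 scored below 100, where 32.9% of the list lies. One stronger peak stood among them, chr8:11599170-11602302 with 3133 bp and a score of 618.05, 37.2 kb past the 5′ end. Past the gene, chr8:11626339-11628840 scored 1029.84, and NEIL2, a DNA glycosylase gene, is the next protein-coding gene on that side. In GATA6 a peak of 2753 bp and score 1226.47 followed the start peak. Chr18:19772745-19775438, with 2694 bp and a score of 393.34, lay 23.7 kb into the gene. None of the 4 GATA6 peaks scored below 100, though the lowest, at 105.59, was close to it. With scores under 100 left out, GATA4 kept 7 of its 16 peaks, and the covered share of its window was 24.9% in place of 36.2%. The GATA6 window kept its 4 peaks and stood at 25.3%.

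In the GATA5 window the peak over the start was joined by others on both sides. Before the gene, chr20:61066856-61073214 with 6359 bp and a score of 1467.22 ran across the edge of the window. At the 3′ end chr20:61029238-61038124 spanned 8887 bp with a score of 1740.75, and a chain of 5 smaller peaks scoring from 53.62 to 241.48 continued past it. The longest stretch without a peak in the window was 2.36 kb. GATA5 had 3 peaks of 5 kb or more. In GATA2 a further peak of 2574 bp and score 1046.16 lay before the gene, and the lowest-scoring peak, 93.77, lay at the far edge of the window past the 3′ end.

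The FOG genes were opposites. ZFPM1 carried 31 peaks, of which 19 touched the gene, and the longest stretch without a peak was 6.44 kb. Its ceiling peak over the start was followed within the gene by chr16:88524351-88532713 (8363 bp, score 1402.49), chr16:88553348-88558207 (4860 bp, 1951.60), chr16:88562583-88573075 (10493 bp, 2597.02) and, over the 3′ end, chr16:88598726-88602520 (3795 bp, 1692.94). The widest of these, the peak of 10493 bp, lay 42.6 kb inside the gene and was wider than the peak over the start. Joined across gaps of up to 1 kb, 14 peaks made a stretch of 49290 bp, from 17.4 kb before the 5′ end to 31.9 kb into the gene. ZFPM2 is the longest of the 8 genes, at 486 kb, and had 2 peaks. The peak at the start held 71.2% of the covered bases, and the other, chr8:106399263-106400386, measured 1124 bp and scored 84.02. From there no peak followed for 508.7 kb, which takes in the rest of the gene. ZFPM1 gave 31 of the 73 peaks, and without it the other 7 windows held 42.

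The 73 peaks ranged from 656 to 19782 bp. Their median width was 2087 bp (quartiles 1276 and 3133), and that of the list 1531 bp (quartiles 1089 and 2361). Peaks of 5 kb or more numbered 11, or 15.1% (95% Wilson interval 8.63% to 25.0%), against 3.2% of the list. All 7 ceiling peaks were among these 11. Ceiling peaks made up 9.59% of the 73 (4.72% to 18.5%), against 4.69% of the list, which lies just under the lower bound of the interval. Scores below 100 made up 30.1% (20.8% to 41.4%), close to the 32.9% of the list. The value of the list lay below the interval for broad peaks and within that for weak peaks. GATA5 and ZFPM1 gave 3 broad peaks each. The windows were set around genes and the list was not, and these shares were not computed around other genes. The intervals are therefore no test of the 8 genes against the list. The intervals hold counting error alone, and peaks of 1 locus are not independent of each other.

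**Figure D5:**
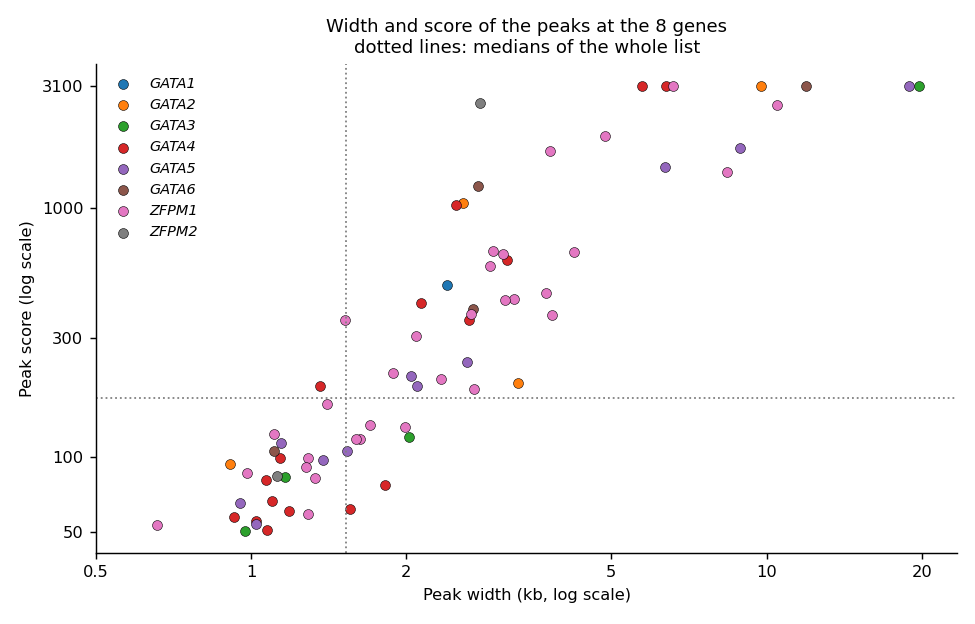
Width (x axis, kb, log scale) and score (y axis, log scale) of the 73 peaks, coloured by gene, with dotted lines at the medians of the whole list (1531 bp and 172.3). The 7 peaks at 3100 are all 5 kb or wider, and ZFPM2 has a peak of 2780 bp with a score of 2640.80.

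How a domain is cut into peaks affects the numbers. Of 65 neighbouring pairs in the windows, 12 were up to 100 bp apart and 35 up to 1 kb apart. After joining peaks up to 1 kb apart, ZFPM1 had 8 stretches in place of 31 peaks, GATA5 4 in place of 11 and GATA4 14 in place of 16, and the covered shares were 81.4%, 88.0% and 36.4%. Peak numbers at ZFPM1 and GATA5 therefore mostly count pieces of long stretches, while those of GATA4 count separate small peaks. At the window edges, 3 of the 73 peaks were only partly inside, in the GATA2, GATA3 and GATA5 windows, and the nearest peak left out, beside GATA4, lay 0.04 kb from the edge with a score of 346.30.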

How the data were processed

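The V5 ChIP library of day 7 cardiac progenitors was compared with 1 input library by the authors, who deposited a list of peaks with a score for each. Per the submitters' processing notes, BWA 0.7.17 and the build hg19 were used, and the peak names show that MACS called the peaks. The sources used here give neither its version and settings nor the unit of the score, and depth is unknown. The score was used only to rank peaks within the list, and the phiX174 peak was left out of the 46207 human peaks.

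Gene spans came with the rule in kb of hg19. A peak was assigned on an overlap of 1 bp, and the 5′ end is the low edge of the span, or the high edge for GATA2 and GATA5, which lie on the minus strand. All 8 members were described. The members were chosen with earlier results of these data known. The work used scipy 1.17.1, numpy 2.4.6 and pandas 2.3.3 under Python 3.11.15, and the coverage code was tested on simulated peaks. Sequences and gene order came from RefSeq tables of GRCh38.p14, with starts used for 5 members. Their positions were not joined to peaks. Distances within a gene were taken as equal in both builds. Intervals are 95% Wilson or exact Poisson. Alternatives were score thresholds, window width, overlap, merging and leaving out each gene.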

Additional observations from a re-analysis of the deposited data

How the results depend on the processing

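Of 56 alternative values for the peak number, covered share, ceiling share and median width of the 8 windows, 42 stayed within 1.5 times (peak number) or within the 95% interval, and 14 moved. The interval of the covered share takes each kb as 1 unit, and that of the median width comes from the order of the widths. Neighbouring kb can lie under the same peak, and peaks of 1 locus are not independent. Both intervals are thus likely too narrow, and the split into 42 and 14 is only a convention. The peak number was 33 with scores of 300 or more, 45 without widening and 38 after merging up to 1 kb. It ranged from 42 (without ZFPM1) to 72 with 1 gene left out. The covered share was 17.1% with scores of 300 or more, 18.6% without widening and 19.96% with 50 kb of widening. It ranged from 15.7% (without ZFPM1) to 45.4% (without ZFPM2) with 1 gene left out. The ceiling share was 21.2% with scores of 300 or more, and from 8.70% to 14.3% with 1 gene left out. The median width was 2701 bp with scores of 100 or more, 3241 bp with 300 or more and 2753 bp without widening, and from 2033.5 to 2338 bp with 1 gene left out. Score thresholds raise the ceiling share by their construction. For the moves of the median width and those with the window width, the cause was not tested. No paired analysis was possible because the ChIP and the input are single libraries.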

Other observations

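The peaks just outside the windows extend the contrast between the loci. Beside ZFPM2, the nearest peak on the low side lay 552.8 kb from the window, and 72.1 kb away on the other side stood a peak of 1160 bp with a score of 182.62. Between these, the list held only the start peak of ZFPM2 and the weak peak inside the gene. Beside GATA3 and GATA6 the nearest peaks on the low side, which is the side before both genes, were 125.5 and 121.5 kb from the window, with scores of 84.17 and 96.58. Past GATA4, 20.5 kb beyond the window, chr8:11658518-11661721 had 3204 bp and a score of 1985.06, higher than any GATA4 peak below the ceiling. Around GATA5 and ZFPM1 the nearest peaks stood from 2.18 to 7.90 kb from the window, with scores from 87.87 to 243.10.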
